A study of Mus musculus with 12 samples.

Results

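The Mir-130 family is a group of related microRNAs (miRNAs), the short RNAs that guide Argonaute proteins to target messenger RNAs. Its members were taken by name, as every row of the deposited table whose family name is Mir-130, with all arms, and 7 of the 513 rows met this rule. The rows cover 4 paralogues. Mir-130-P1a, Mir-130-P1b and Mir-130-P2a each had a 3p and a 5p row, and Mir-130-P2b had a 5p row. The small RNA came from the hippocampus of 12 male wild-type C57BL/6J mice, the second generation (F2) after founder males (F0), with descent through the male line. In the exercised lineage (F2_exercised, n = 6) the grandfathers had exercised, and in the sedentary lineage (F2_sedentary, n = 6) they had been sedentary. The labels give no age and no treatment of the F2 mice themselves. By its title, the study addressed effects of exercise on the mouse brain that reach later generations.

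A miRNA is cut from a hairpin whose arms, 5p and 3p, can each give a mature strand. The strand that is usually kept by Argonaute is called the guide, and the other, marked by an asterisk in the row names, the passenger. Bases 2 to 8 of the guide, the seed, pair with the target messenger RNA and largely decide which messages are bound. By the row names, the 3p arm is the guide in the Mir-130 family. The family is known from endothelial cells and angiogenesis, from blood cell and fat cell differentiation, and from growth control in tumours.

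The mature strands of the family are shown first because the guide strands share a seed, while the passenger strands do not all share 1. The results below turn on the balance between guide and passenger rows. RefSeq (GRCm38.p6, the build also known as mm10) held 7 mature sequences of the 4 family genes Mir130a, Mir130b, Mir301 and Mir301b, 3 of them 3p and 4 of them 5p. The deposited table names its rows by MirGeneDB paralogue and does not pair them with these gene symbols. The sequences are therefore those of the family, and none is assigned to a row. They are written 5′ to 3′ with bases 2 to 8 in capitals.
mmu-miR-130a-3p: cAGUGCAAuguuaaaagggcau
mmu-miR-130b-3p: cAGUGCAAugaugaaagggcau
mmu-miR-301a-3p: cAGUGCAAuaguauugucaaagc
mmu-miR-130a-5p: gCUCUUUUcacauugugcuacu
mmu-miR-130b-5p: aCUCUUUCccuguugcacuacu
mmu-miR-301a-5p: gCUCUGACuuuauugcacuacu
mmu-miR-301b-5p: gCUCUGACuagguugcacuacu

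All 3 of the 3p strands began with the same 9 bases and so had 1 seed, AGUGCAA. Beyond it mmu-miR-130a-3p and mmu-miR-130b-3p were close, with 20 of 22 bases identical, and mmu-miR-301a-3p had 12 of 23 aligned bases in common with mmu-miR-130a-3p. The 4 of the 5p strands held 3 different sequences at bases 2 to 8. There mmu-miR-301a-5p and mmu-miR-301b-5p had the same 7 bases and were identical at 19 of 22 positions. At their 3′ ends all 4 of the 5p strands shared the last 5 bases. Among 1738 mature mouse sequences in the RefSeq table, 7 carried the seed AGUGCAA. The 4 outside the family genes listed here were mmu-miR-721, mmu-miR-130c, mmu-miR-6341 and mmu-miR-6389. No row name of the deposited table held the number of mmu-miR-721, mmu-miR-6341 or mmu-miR-6389, and mmu-miR-130c was not looked up. As the rows follow another naming system, this does not show that these strands have no row.

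The family genes lie at 3 places in the mouse genome (GRCm38.p6, with the same hairpin coordinates in GENCODE release M21). Mir130a is on chromosome 2 (84741115 to 84741178, minus strand), in no other annotated gene, 2460 bases from Ypel4 and 991 bases from Gm19426. Mir301 is on chromosome 11 (87113004 to 87113089, plus strand), in an intron of Ska2, a gene for a kinetochore protein. Mir130b and Mir301b are on chromosome 16 (17124061 to 17124142 and 17124400 to 17124496, minus strand), 257 bases apart and both in introns of 2610318N02Rik on the same strand.

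The 12 libraries held 6862623 to 10219856 reads on miRNA rows, with the smallest step between values taken as 1 read. The values are normalized counts, which are reads divided by 1 size factor per library. Of the marker families checked, those of neurons (Mir-124, Mir-9, Mir-128 and Mir-218) were all present and summed to 2150450 to 3679560 normalized counts in exercised-lineage mice and 2802400 to 3485720 in sedentary-lineage mice. Rows for markers of oligodendrocytes, endothelium, mural cells, microglia and leukocytes, red cells, choroid plexus, epithelia and muscle were present too. No row carried the family name Mir-449 or Mir-183. Markers were looked up by name only, so this does not show that those miRNAs were absent. In bulk samples of a mixed tissue, fewer cells of a type and less RNA per cell cannot be told apart. Of all libraries, F2_exercised replicate 1 had the lowest correlation with the median of the others (r = 0.977 over 474 rows, against 0.983 or more elsewhere). Each library has a submitter code, and the codes begin with 4 stems over 3 libraries each, R31 and R41 for exercised-lineage mice, S11 and S41 for sedentary-lineage mice. The labels do not say what a stem stands for. The p-values below count the 6 mice of a lineage as independent.

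The family was a minor part of the hippocampal profile in both lineages. All 7 rows together held 60.7 ± 10.1 ppm of the normalized counts of an exercised-lineage library and 62.0 ± 8.46 ppm of a sedentary-lineage library (SD, n = 6 for both), or 351 to 678 reads per library. The lowest share was 47.7 ppm and the highest 79.5 ppm, the latter in F2_exercised replicate 1. The lineages overlapped over most of this range. The highest row of the family, Mir-130-P2a_5p*, was 295th of 513 by mean, and the lowest, Mir-130-P2b_5p*, was 498th.

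By mean normalized count over the 12 libraries, Mir-130-P2a_5p* was first (161), followed by Mir-130-P1a_3p (150), Mir-130-P1b_5p* (110), Mir-130-P2a_3p (44.5), Mir-130-P1b_3p (29.2), Mir-130-P1a_5p* (8.79) and Mir-130-P2b_5p* (5.64). The first 2 did not separate, with Mir-130-P2a_5p* the higher in 7 of 12 libraries. Mir-130-P1a_3p was above Mir-130-P1b_5p* in 10 of 12 and Mir-130-P2a_3p above Mir-130-P1b_3p in 10 of 12. The gap between Mir-130-P1b_5p* and Mir-130-P2a_3p held in 12 of 12 libraries, as did that between Mir-130-P1b_3p and Mir-130-P1a_5p*. The last 2 rows did not separate, with Mir-130-P1a_5p* the higher in 7 of 12. So 2 of the 3 most abundant rows of the family were passenger strands.

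The paralogue Mir-130-P1a followed its annotation, with a guide far above its passenger. Mir-130-P1a_3p ran from 145 to 167 normalized counts in the exercised lineage (median 157) and from 114 to 163 in the sedentary lineage (median 146). The lowest 3 sedentary values, 114, 128 and 140.5, lay below every exercised value, and the other 3 lay within the exercised range. It was the steadiest row of the family, with a coefficient of variation over the 12 libraries of 10.95%, where counting alone would give 8.21%. Its passenger Mir-130-P1a_5p* was listed at 0 in F2_exercised replicate 4 and in F2_sedentary replicates 3 and 5. In the other 9 libraries it reached 7.25 to 20.03 normalized counts, from 8 to 22 reads. At the mean of those 9, the libraries listed at 0 would have had 8.59 to 14.2 reads. How the authors treated rows with few reads is not given in the sources used here, so a 0 is given only as listed. Over the 12 libraries the mean of the guide was 17.1 times that of the passenger.

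**Figure D1:**
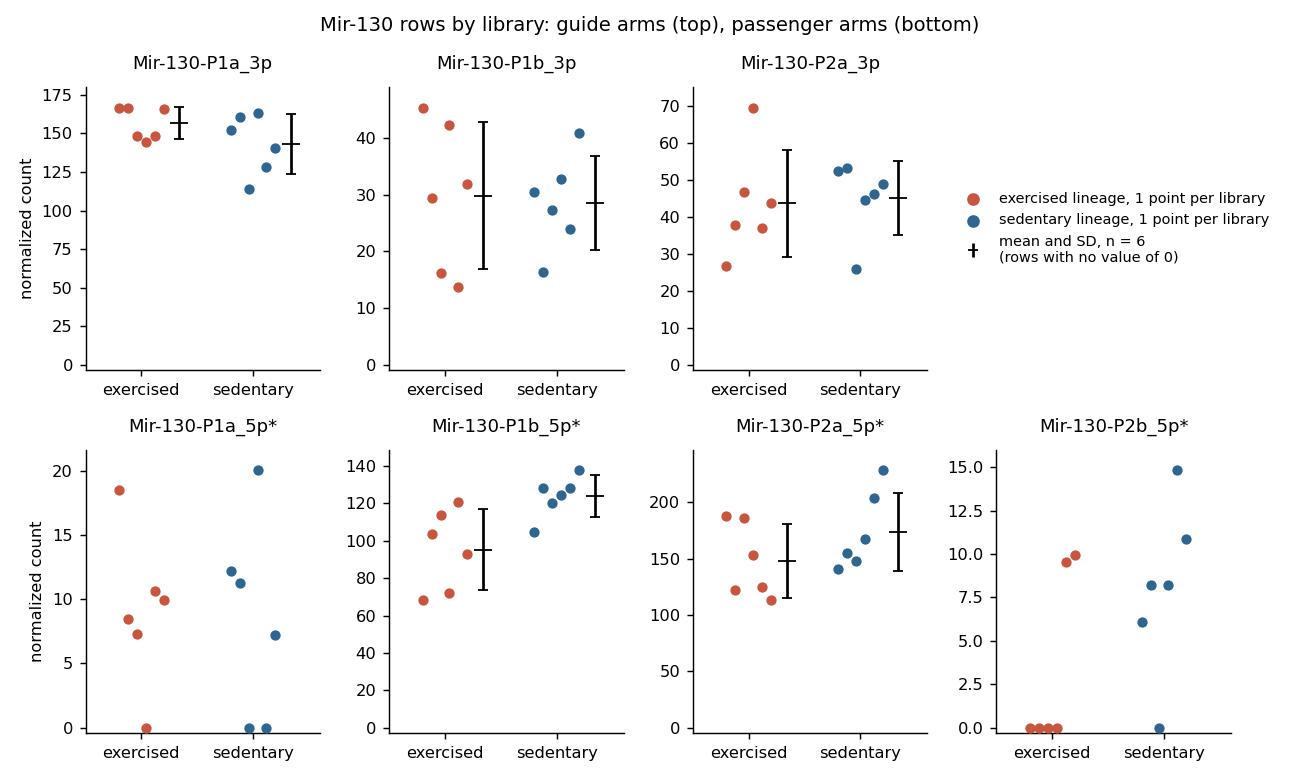
Normalized counts of the 7 Mir-130 rows, 1 point per library in replicate order, with the exercised lineage in red and the sedentary lineage in blue. Guide (3p) rows are above and passenger (5p*) rows below, each on its own linear axis, and black marks give the mean and SD (n = 6) for rows without a value of 0. The lineages overlap in all 7 panels, and in Mir-130-P1b_5p* 4 of the 6 exercised points lie below the lowest sedentary point.

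In Mir-130-P1b and Mir-130-P2a the passenger row was the higher one in 12 of 12 libraries. Mir-130-P1b_3p ran from 13.8 to 45.3 normalized counts in the exercised lineage (median 30.7) and from 16.4 to 40.8 in the sedentary lineage (median 28.9). Mir-130-P1b_5p* ran from 68.5 to 121 (median 98.2) and from 105 to 138 (median 126). Even the highest guide value was thus below the lowest passenger value. The ratio of passenger to guide was between 1.51 and 8.77 in exercised-lineage mice and between 3.38 and 7.81 in sedentary-lineage mice. On the log2(value + 1) scale guide minus passenger was -1.93 ± 0.77 (SD over 12 libraries).

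Mir-130-P2a had the same order of arms with a narrower range of ratios. Mir-130-P2a_3p ran from 26.8 to 69.6 normalized counts in the exercised lineage (median 40.9) and from 26.0 to 53.3 in the sedentary lineage (median 47.5). Mir-130-P2a_5p* ran from 114 to 188 (median 139) and from 141 to 228 (median 161). The passenger was 2.20 to 7.0 times the guide in exercised-lineage mice and 2.70 to 5.67 times in sedentary-lineage mice. Guide minus passenger was -1.85 ± 0.48 on the same log2 scale. No test is given for the order of these arms, since it was first seen in these values.

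For Mir-130-P2b, Mir-130-P2b_5p* was listed at 0 in F2_exercised replicates 1 to 4 and in F2_sedentary replicate 3. The other 2 exercised libraries had 9.55 and 9.97 normalized counts and the other 5 sedentary libraries 6.09 to 14.8, from 5 to 18 reads. It was thus listed in 2 of 6 exercised and 5 of 6 sedentary libraries. At the mean of the libraries that list it, those at 0 would have had 7.08 to 11.95 reads. With a mean under 10 this row, like Mir-130-P1a_5p*, did not enter the test between lineages. Without the filter on low values its log2 fold was -1.65 (SE 0.93, limma adjusted p = 0.563).

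Set against other miRNAs, the arm order of Mir-130-P1b and Mir-130-P2a was uncommon. Of 141 precursors with 1 guide and 1 passenger row, the passenger mean exceeded the guide mean in 26 (18.4%). The passenger was higher in all 12 libraries in 15 (10.6%). Rows named for more than 1 precursor or variant were left out, so the shares and ranks cover unshared rows only. By the ratio of passenger to guide, Mir-130-P1b (3.75) was the fifth highest and Mir-130-P2a (3.62) the sixth, behind Mir-582, Mir-674, Mir-28-P3 and Mir-671. The guide was 19.6 times the passenger in the median precursor, close to the 17.1 times of Mir-130-P1a. Passenger rows made up 55.8% ± 5.56 of the counts on the listed Mir-130 rows (SD, n = 12), from 46.7% to 63.6% per library. These were 4 passenger and 3 guide rows, as Mir-130-P2b had no guide row, so this is a share of listed rows only.

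**Figure D2:**
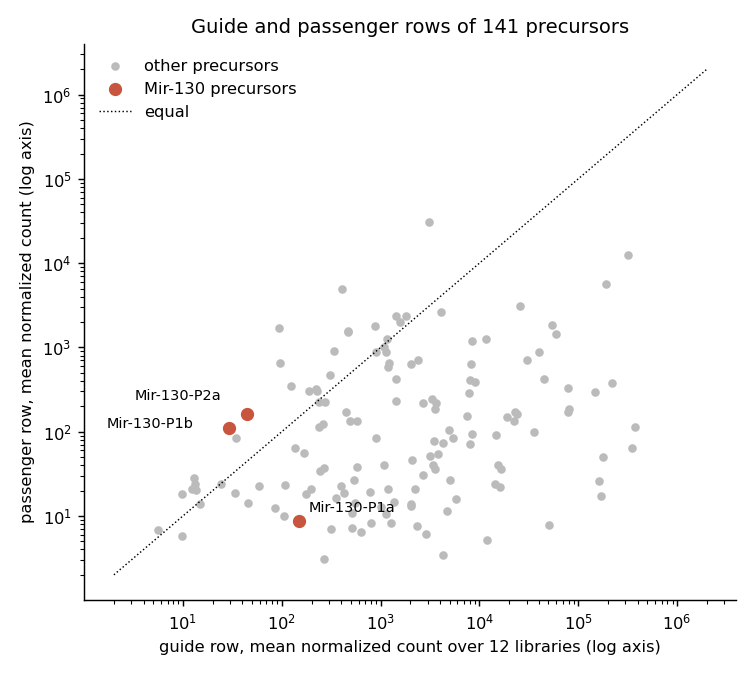
Mean normalized count over the 12 libraries of the guide row (horizontal, log axis) and the passenger row (vertical, log axis) for 141 precursors, with Mir-130 precursors in red and the dotted line at equal values. Mir-130-P1b and Mir-130-P2a lie above the line with ratios of 3.75 and 3.62, and Mir-130-P1a lies below it with its guide at 17.1 times its passenger.

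No Mir-130 row was called between the lineages. Of the 5 rows tested with limma, 0 had a Benjamini-Hochberg adjusted p below 0.05, beside 0 of all 474 rows tested (0%). At an unadjusted p below 0.05 there was 1 of the 5, beside 34 of 474 (7.17%). The folds, exercised minus sedentary lineage on the log2(value + 1) scale, were above 0 for 1 row and below 0 for 4, with a median of -0.07, while 50.2% of all tested rows were below 0 and their median was -0.00. The lineages overlapped for all 7 rows, as they did for all 474 tested.

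The rows annotated as guides, the 3p arms, were close between the lineages but measured with unequal precision. Mir-130-P1a_3p averaged 157 ± 10.6 normalized counts in exercised-lineage mice and 143 ± 19.3 in sedentary-lineage mice (SD, n = 6 per lineage). Its fold was 0.14 (SE 0.11, 95% confidence interval -0.09 to 0.37, limma adjusted p = 0.615), and 0.07 without F2_sedentary replicate 3. On the linear scale that interval ran from 0.939 to 1.29 times the sedentary level. Mir-130-P2a_3p had 43.7 ± 14.5 against 45.2 ± 9.99, a fold of -0.07 (SE 0.23, interval -0.58 to 0.43, limma adjusted p = 0.956). Mir-130-P1b_3p had 29.8 ± 13.0 against 28.6 ± 8.27, a fold of -0.01 (SE 0.32, interval -0.70 to 0.67, limma adjusted p = 0.996). These last 2 guides were read 21 to 58 and 13 to 49 times per library. Their intervals ran from 0.671 to 1.35 and from 0.615 to 1.595 times the sedentary level. With the spread between these mice, the values are compatible with differences anywhere within those intervals. The folds of these 2 guides turned above 0 when libraries were scaled by totals or by the upper quartile. These scalings moved the median fold of all rows by 0.09 and 0.08.

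Among the passenger rows, Mir-130-P1b_5p* had the lowest fold and the smallest p of the tested members. It averaged 95.4 ± 21.6 normalized counts in exercised-lineage mice and 124 ± 11.1 in sedentary-lineage mice, and 6 of 6 exercised libraries lay below the sedentary median of 126. The highest exercised values, 121 and 114, still lay within the sedentary range of 105 to 138. The fold was -0.40 (SE 0.15, interval -0.73 to -0.08, unadjusted p = 0.0186, limma adjusted p = 0.532). The unadjusted limma p was 0.0647 under scaling by totals, 0.0522 under upper-quartile scaling and 0.141 without the S41 libraries. By code stem the values were 68.5 to 114 in R31 and 72.4 to 121 in R41, and 105 to 128 in S11 and 125 to 138 in S41, so the means of the exercised stems (95.4 and 95.4) were below both sedentary ones (118 and 130). Without F2_exercised replicate 1, the lowest library, the fold was -0.31. Of the marker sets checked, red cells had the highest r with Mir-130-P1b_5p* over the 12 libraries (0.55). The other sets ran from -0.08 (mural cells) to 0.35 (muscle). The red cell markers had rows for all 3 families Mir-144, Mir-451 and Mir-486, with none at 0. They summed to 616 to 816 normalized counts in exercised-lineage mice and 720 to 1199 in sedentary-lineage mice. Their part in this fold was not tested.

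Mir-130-P2a_5p* also had a fold below 0, with 148 ± 33.0 against 174 ± 34.7 normalized counts. The fold was -0.24 (SE 0.16, interval -0.59 to 0.12, limma adjusted p = 0.578). Here 4 of 6 exercised libraries lay below the sedentary median of 161, while F2_exercised replicates 1 and 3 reached 188 and 186. The highest values, 203 and 228, belonged to F2_sedentary replicates 5 and 6, which share the stem S41. With the libraries of 1 stem left out, the fold was -0.03 without S41, -0.08 without R41, -0.40 without R31 and -0.45 without S11, so its size rested on which stems were included.

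**Figure D3:**
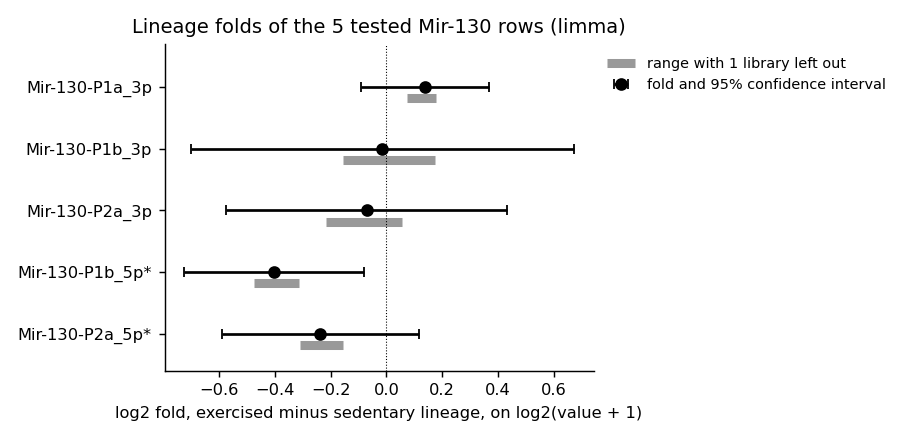
Log2 folds of the 5 tested Mir-130 rows on the horizontal axis, exercised minus sedentary lineage, on the log2(value + 1) scale. Points and black bars give the limma fold with its 95% confidence interval, and grey bars the range of the fold with each of the 12 libraries left out in turn. The interval of Mir-130-P1b_5p* (-0.73 to -0.08) lies below 0 before adjustment under the deposited scaling, and the other 4 intervals hold 0.

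The balance between the arms, a ratio within a library in which the size factor nearly cancels, was also compared. The log2 difference of guide and passenger was compared between lineages over 125 of the 141 precursors, those with both rows at a mean of at least 10. Of these, limma called 0 (0%). At an unadjusted p below 0.05 there were 8 precursors (6.4%), none from this family. For Mir-130-P1b the balance was -1.74 in exercised-lineage mice and -2.12 in sedentary-lineage mice, a difference of 0.39 (SE 0.42, interval -0.52 to 1.301, limma adjusted p = 0.788), and it was 0.16 without F2_exercised replicate 1 and 0.65 without F2_exercised replicate 5. For Mir-130-P2a it was -1.77 and -1.93, a difference of 0.17 (SE 0.27, interval -0.43 to 0.76, limma adjusted p = 0.890). It ran from 0.04 without F2_exercised replicate 4 to 0.37 without F2_exercised replicate 1, and was -0.20 without the R41 and 0.53 without the R31 libraries.

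Within the exercised lineage, the arms of Mir-130-P1b ran against each other. The libraries with the highest guide values, F2_exercised replicates 1 and 4 (45.3 and 42.3 normalized counts), had the lowest passenger values (68.5 and 72.4). Those with the lowest guide values, F2_exercised replicates 5 and 3 (13.8 and 16.2), had the highest passenger values (121 and 114). Pearson's r of the log2 values was -0.93 in exercised-lineage mice and 0.03 in sedentary-lineage mice (n = 6 each). The difference between them was not tested. Over the 125 precursors, r in exercised-lineage mice ran from -0.98 (Mir-342) to 0.97 (Mir-154-P10). It was also lower for Mir-3093 (-0.96) than for Mir-130-P1b. Over all 12 libraries r was -0.54 (permutation p = 0.0648, adjusted p = 0.215 over 125 precursors) and Spearman's rho -0.42 (permutation p = 0.178, adjusted p = 0.474). Without the 2 libraries farthest from the median guide value r was -0.60. The r over all 12 libraries ranked eighth from the lowest of 125 precursors, whose median r was 0.14. Of them, 1 (0.8%) had a correlation below 0 past the adjusted threshold. For Mir-130-P2a r was 0.08 (permutation p = 0.804, adjusted p = 0.911) and rho 0.24 (permutation p = 0.456, adjusted p = 0.760), with r = 0.30 without the farthest 2 libraries. The guide of Mir-130-P1b rests on 13 to 49 reads per library, and its coefficient of variation was 35.6%, where counting alone would give 18.6%.

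**Figure D4:**
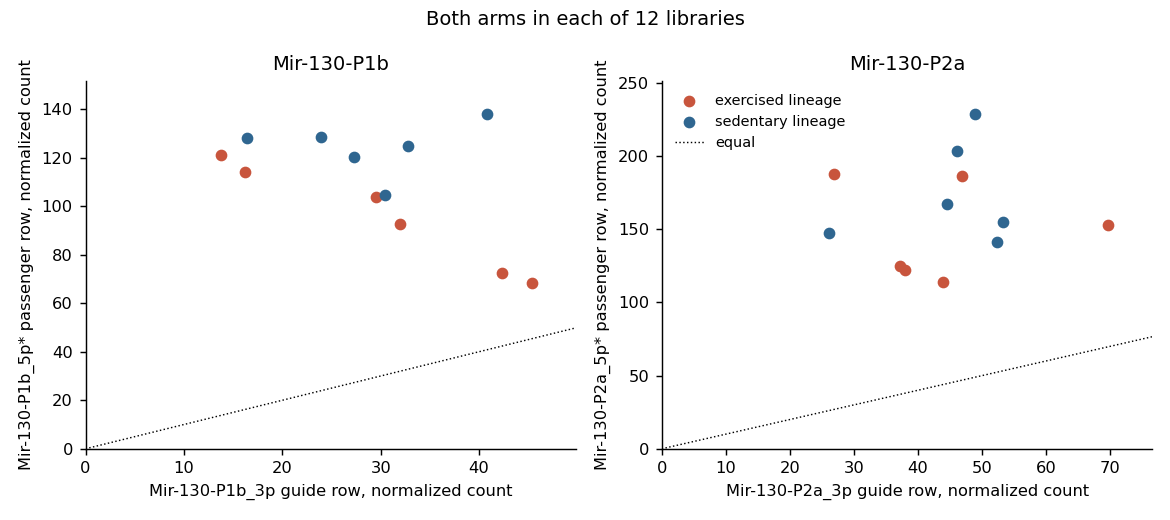
Normalized counts of the guide row (horizontal) and the passenger row (vertical) of Mir-130-P1b (left) and Mir-130-P2a (right), 1 point per library, with the exercised lineage in red, the sedentary lineage in blue and the dotted line at equal values. All 12 points lie above the line in both panels. The exercised points of Mir-130-P1b fall from 121 to 68.5 passenger counts as the guide goes from 13.8 to 45.3.

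Correlations between the rows of the family differed in size and sign. Among the 3 guide rows, Pearson's r over the 12 libraries on log2(value + 1) was 0.10 for Mir-130-P1a_3p and Mir-130-P1b_3p, 0.17 for Mir-130-P1a_3p and Mir-130-P2a_3p, and -0.01 for Mir-130-P1b_3p and Mir-130-P2a_3p. The highest r of any pair of rows was 0.81, for Mir-130-P1a_3p and its passenger Mir-130-P1a_5p*, which was listed at 0 in 3 libraries. The next was 0.57, for Mir-130-P1b_5p* and Mir-130-P2b_5p*, the latter listed at 0 in 5 libraries. These are descriptions over libraries that share a size factor for all rows. The spread over the 12 libraries holds counting error, library preparation and differences between mice, which were not separated. For Mir-130-P2a_5p* the coefficient of variation was 21.7% against 7.92% from counting, for Mir-130-P1b_5p* 20.2% against 9.60%, and for Mir-130-P2a_3p 26.7% against 15.1%.

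The rows most like each guide over the 12 libraries were looked up among 316 rows outside the family with a mean of at least 100. For Mir-130-P1a_3p they were Mir-324_3p* (r = 0.87), Mir-154-P34_3p (r = 0.86) and Mir-181-P1c_5p (r = 0.86). For Mir-130-P1b_3p they were Mir-28-P1_3p (r = 0.83), Mir-339_5p (r = 0.68) and Mir-339_3p* (r = 0.67). For Mir-130-P2a_3p they were Mir-374-P2_5p (r = 0.80), the shared row of Mir-19-P2a and Mir-19-P2b (r = 0.79) and the passenger row of Mir-140 (r = 0.76). They were picked as the highest of 316, so no test is given. The guides had no row in common among these.

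The Mir-19 and Mir-148 families have seeds that overlap the Mir-130 seed with a shift of 1 base, and their 3p strands from RefSeq are shown to make the shift visible, with bases 2 to 8 in capitals.
mmu-miR-19b-3p: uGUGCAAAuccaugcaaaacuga
mmu-miR-130a-3p: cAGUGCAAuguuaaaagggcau
mmu-miR-148a-3p: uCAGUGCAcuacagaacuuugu

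The seed of mmu-miR-19b-3p shares the 6 bases GUGCAA with that of the Mir-130 family, and the seed of mmu-miR-148a-3p shares the 6 bases AGUGCA. Mir-19 belongs to the growth-promoting Mir-17 to Mir-92 cluster, and the Mir-148 family includes miR-148a, miR-148b and miR-152. The 3 Mir-130 guide rows summed to 199 to 257 normalized counts in exercised-lineage mice and 167 to 240 in sedentary-lineage mice. The 2 Mir-19 guide rows summed to 92.5 to 410.96 and 184 to 337. The 3 Mir-148 guide rows summed to 68533 to 109182 and 72569 to 114412, a median of 410 times the Mir-130 guides. The Mir-130 guide sum was far below that of Mir-148 in every library, and 0.388 to 1.70 times as many counts fell on the Mir-19 guides as on the Mir-130 guides.

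The families with overlapping seeds had no called row either. Of 2 Mir-19 rows, 0 were called, with folds of 0.08 for Mir-19-P1_3p, which was listed at 0 in 2 libraries, and -0.09 for the shared row of Mir-19-P2a and Mir-19-P2b (SE 0.30, limma adjusted p = 0.955). Of 6 Mir-148 rows, 0 were called, with 3 folds above 0 and 3 below and a median of -0.03. The most abundant, Mir-148-P1_3p, had 75041 ± 15406 against 82882 ± 13947 normalized counts, a fold of -0.15 (SE 0.15, interval -0.47 to 0.17, limma adjusted p = 0.685).

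**Figure D5:**
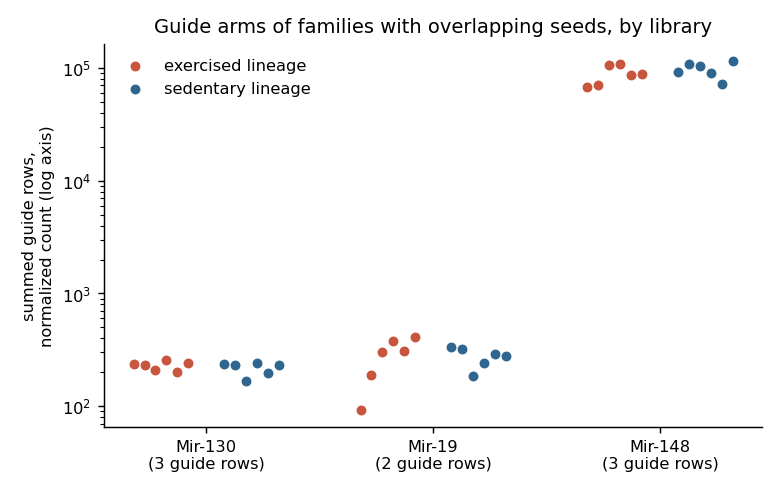
Summed normalized counts of the guide rows (vertical, log axis) for the Mir-130, Mir-19 and Mir-148 families, 1 point per library in replicate order, with the exercised lineage in red and the sedentary lineage in blue. The Mir-130 sums lie between 167 and 257, the Mir-19 sums between 92.5 and 410.96 and the Mir-148 sums between 68533 and 114412, and the lineages overlap in each family.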

How the data were processed

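Hippocampal miRNA was isolated (Qiagen miRNAeasy) before library preparation with an NEB Next small RNA set, per the labels' protocols. Per the submitters' processing notes, Bowtie 1.3.0, mm10 and DESeq2 were used by the authors. By their steps and that note, the deposited signal values are reads per mature arm divided by 1 size factor per library. How the authors trimmed and filtered reads was not given in the sources used here. In every library 100% of values were whole multiples, within 0.01, of 1 step, and the smallest positive value stood for 2 to 6 steps. The step was used for depth and reads only, and no count model was fitted. Rows with a mean of at least 10 (474 of 513) were compared by limma 3.58.1 with a trend (R 4.3.3) on log2(value + 1), all 12 libraries in 1 fit, with Benjamini-Hochberg adjustment over all rows. The same model served for arm balance. Correlation p-values came from 100000 permutations. The model was tested on simulated data with folds larger than those of the tested Mir-130 rows and without code stems. That test does not show whether folds as small as these would be called. Intervals cover the spread between mice taken as independent, and a spread between code stems was not modelled in them. Alternatives varied the pseudocount, filter, scaling, model and libraries. The members and lists were chosen with earlier results of these data known. Named rows were all family rows, the families with a seed shifted by 1 base, and the 3 rows most like each guide.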

Additional observations from a re-analysis of the deposited data

Results flagged for a closer look

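Of 24 sets of 6 values examined (each row, share and arm balance in each lineage), 2 held a value far from the others by Dixon's test, and chance gives about 1 in 20. Mir-130-P2a_3p was 26.0 normalized counts in F2_sedentary replicate 3, while the other 5 sedentary libraries ran from 44.6 to 53.3. Without that library the fold of Mir-130-P2a_3p was -0.22. The arm balance of Mir-130-P1a was 7.19 in F2_exercised replicate 4 on the log2(value + 1) scale, while the other 5 exercised libraries ran from 3.10 to 4.17. In that library the passenger row was listed at 0.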

How the results depend on the processing

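No row and no precursor was called under any alternative run. Over 170 alternative values for the 5 folds and the 2 arm balances, 155 kept their sign and 15 turned, none past the adjusted threshold (lowest adjusted p 0.421). The folds of Mir-130-P1a_3p, Mir-130-P1b_5p* and Mir-130-P2a_5p* kept their sign in all 26 alternatives each. Mir-130-P1b_3p turned to 0.0707 under scaling by totals and 0.0666 under the upper quartile, 0.0193 without the R41 and 0.18 without the S41 libraries, and ran from -0.16 to 0.17 with 1 library left out. Mir-130-P2a_3p turned to 0.0134 under scaling by totals and 0.0115 under the upper quartile, 0.13 without the R31 and 0.00534 without the S41 libraries, and ran from -0.22 to 0.0547 with 1 library left out. The arm balance of Mir-130-P2a turned to -0.20 without the R41 libraries. The cause was not tested. Leaving out single libraries, Mir-130-P1b_5p* folds ran from -0.48 to -0.31 and the family share from 56.9 to 62.5 ppm in the exercised and 60.6 to 64.9 in the sedentary lineage. Guide minus passenger ran from -2.05 to -1.78 for Mir-130-P1b and from -1.998 to -1.755 for Mir-130-P2a over the pseudocounts, single libraries and stems tried, all chosen after seeing the data.

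The mouse numbers did not pair the libraries: same-numbered mice deviated with correlations from -0.17 to 0.15, and 1 of 6 correlated best with its own number. With the number as a replicate block, 0 rows were called and 16 were at an unadjusted p below 0.05, against 34 without it, and the adjusted p of Mir-130-P1b_5p* was 0.720. Rows at an unadjusted p below 0.05 numbered 57 under the upper quartile, 17 without F2_exercised replicate 6, 16 without the S11 and 19 without the S41 libraries. With the code stem as a random block, 0 rows were called and 34 were at an unadjusted p below 0.05. Precursors with an arm balance at an unadjusted p below 0.05 fell from 8 to 5. The unadjusted limma p of Mir-130-P1b_5p* was 0.0181. The SE of its fold was 0.149 with this block and 0.150 without it, so the block added no spread for stems. Each stem lies within 1 lineage and 1 correlation served all rows, so this setting cannot show whether the fold holds across stems. The edgeR, DESeq2 and TMM alternatives were not run, as the values are normalized. A filter at a mean of 50 leaves out Mir-130-P1b_3p and Mir-130-P2a_3p. Reads per value, as few as 5 to 22 for the lowest rows, limit what can be seen there.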
